A study of Mus musculus with 30 samples.

Results

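The genes that drive the cell cycle and DNA replication were followed in AtT-20 cells, an established line from a mouse pituitary tumour with corticotrope character, after addition of corticotropin-releasing hormone (CRH). The members were taken by name: a spot of the array belongs to the set when its deposited gene name begins with cyclin, cell division cycle, mini chromosome maintenance, topoisomerase, ribonucleotide reductase, DNA polymerase, replication factor, replication protein, origin recognition complex, proliferating cell nuclear antigen, budding uninhibited or the Ki 67 antigen. This rule takes 140 spots of 93 genes out of 22830 named spots, and 102 of them, from 81 genes, were bright enough to be measured on all arrays, out of 14375 measured spots in all.

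Cells exposed to 100 nM CRH and untreated cells of the same hour gave the 2 RNA samples of each array, at 1, 3, 6, 12 and 24 h, with 30 spotted cDNA arrays in all and 6 per hour. Treated and untreated cells alike had been deprived of fetal calf serum before the experiment and were kept in serum-free medium during it. On 3 of the 6 arrays the CRH-treated RNA carried the dye Cy3 and on the other 3 it carried Cy5. Only 1 pair of RNA extracts was used per hour, so the spread between them, and every p-value computed over arrays, measures hybridisation and scanning only. AtT-20 is 1 cell line, and in such bulk RNA a change in the share of cells in a cycle phase and a change in RNA per cell cannot be told apart.

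All values below are log2 ratios of CRH-treated over untreated RNA, so that a positive value means more signal in CRH-treated cells, and a value after ± is the SD over the 6 arrays. Over all spots, the median of this SD was between 0.27 and 0.35 in the different hours, which sets the size of difference that can be seen. Median spot intensities ranged from 482 to 2175 between channels. Of the measured corticotrope markers, Pomc and Scg2 lay at the 94.6th and 91.6th percentile of intensity and Tbx19 at the 10.2th. Growth hormone (Gh), a marker of another pituitary lineage, lay at the 1.3th percentile. The 5 measured fibroblast spots lay at or below the 28.3th percentile.

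In a dividing cell, cyclins switch on cyclin-dependent kinases in turn: D and E cyclins with Cdk4 and Cdk2 carry the cell through G1 into S phase, and A and B cyclins with Cdk1 carry it through S phase into mitosis. Before S phase the origin recognition complex, Cdc6 and the Mcm helicase license replication origins. At the fork, replication protein A coats single strands, replication factor C loads the sliding clamp Pcna, DNA polymerases copy the template, ribonucleotide reductase supplies deoxynucleotides and topoisomerases relieve the twist. Many of these genes are transcribed mainly in S and G2 phase, through E2F sites, cell cycle homology regions and CCAAT boxes in their promoters, and CRH acts on corticotropes largely through cyclic AMP.

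Most members stayed close to the untreated level throughout. From the first to the last hour, the 102 spots had medians of -0.02, -0.01, 0.02, 0.02 and -0.01, and over all 14375 spots the medians lay between -0.02 and 0.00. The interquartile range of the members ran from -0.14 to 0.08 at 1 h and from -0.10 to 0.09 at 24 h. The highest member mean was 0.62 (Cdc25b at 12 h) and the lowest was -0.48 (Rrm2 at 1 h). The typical range of a member over the 5 time points, as the median of highest minus lowest time point mean, was 0.33, the same as over all spots (0.33).

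**Figure D1:**
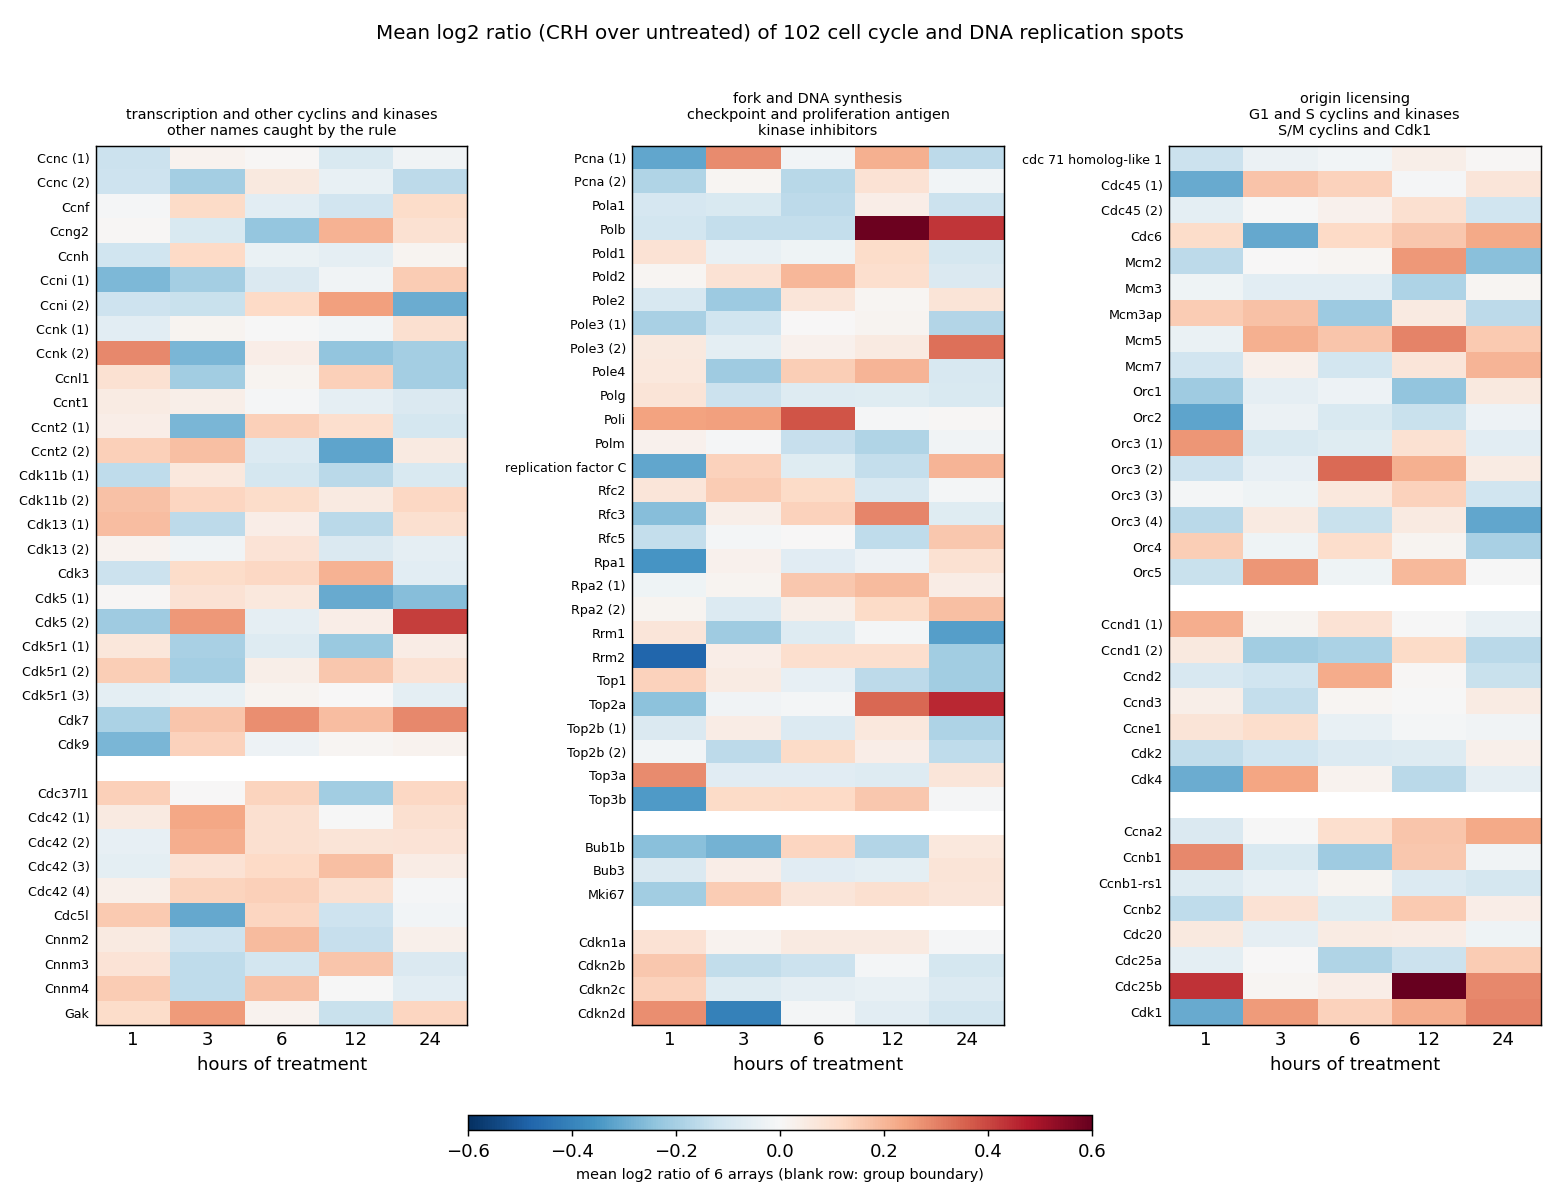
Heat map of the mean log2 ratio (CRH over untreated, 6 arrays) of the 102 measured member spots at 1 to 24 h, grouped by role, with blank rows between groups and numbers in brackets for different spots of 1 gene. Most cells are pale, and the strongest colours include Polb and Cdc25b at 12 h (0.59 and 0.62), Top2a at 24 h (0.45) and Rrm2 at 1 h (-0.48).

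The 4 tests that follow asked in different ways whether a member moved. Differences between the time points, tested with limma over the 30 arrays with dye orientation as covariate, were called at an adjusted p under 0.05 for 4 of 102 member spots (3.92%), where 5.36% of all spots were called. An unequal course in the 2 dye orientations (the interaction of time and dye) was called for 11 of 102 members, where 11.2% of all spots were called. A mean over the 5 time points different from 0, tested with limma on 1 average per time point, was called for 0 of 102 members (0.0557% of all spots), and at an unadjusted p under 0.05 for 4 (5.38% of all spots). A trend with the log2 of hours was called for 0 members (0% of all spots), and at an unadjusted p under 0.05 for 8 (7.15% of all spots). Of the 4 members that changed over time, 3 had no called interaction, as did 4.08% of all spots. In each of these tests the members' share lay near that of the array as a whole.

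The 4 spots that changed over time were all placed in the role group of fork and DNA synthesis. They were topoisomerase II alpha (Top2a), DNA polymerase beta (Polb), the small subunit of ribonucleotide reductase (Rrm2) and a spot named only replication factor C. This group also takes in polymerases outside the fork, Polb among them. The called spots are 4 of the 28 measured spots of this group. Among the other member spots, which hold the cyclins, cyclin-dependent kinases, kinase inhibitors, licensing factors and checkpoint genes, limma called 0 for time. Over all spots 5.36% were called for time. The roles were chosen with earlier results of these data known, and the difference between roles was not tested.

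Top2a, the topoisomerase that untangles sister chromosomes and peaks in G2 and M phase, had the lowest p. At 24 h its 6 arrays (spot 1550) had a lowest value of 0.30, a median of 0.45 and a highest value of 0.63, and the mean was 0.45 ± 0.14, a 1.37-fold higher signal in CRH-treated cells. At 12 h the lowest, median and highest were 0.22, 0.36 and 0.49, with a mean of 0.34 ± 0.10. All arrays of these later time points were above 0, and in both dye orientations alike: at 24 h the means were 0.45 with CRH in Cy3 and 0.45 with CRH in Cy5.

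At 3 h and 6 h Top2a stood at the untreated level, with means of -0.02 ± 0.12 and -0.01 ± 0.07, and its 6 h arrays lay between -0.11 and 0.08. At 1 h the arrays split by dye, with a mean of -0.63 with CRH in Cy3 and 0.14 with CRH in Cy5, so that the 1 h mean of -0.25 ± 0.44 rests on 1 orientation. The adjusted p was 0.00333 for time and 0.0145 for the interaction of time and dye (limma). Without the 1 h arrays the adjusted p for time was 0.0116. Its slope was 0.16 per doubling of time with a standard error of 0.04 (adjusted p = 0.593 by limma), the lowest p for a trend among the members.

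Polb, which fills short gaps in base excision repair and is not a fork polymerase, was the one member past the size rule, under which a mean is at least 1.5-fold and no array of that hour lies on the other side of 0. Its 12 h arrays (spot 4873) had a lowest value of 0.06, a median of 0.51 and a highest value of 1.23, with a mean of 0.59 ± 0.41, a 1.5-fold higher signal. That is 1 of 102 members in the higher direction at 12 h, where 0.125% of all spots passed. In all other cases 0 members passed, where in the higher direction 0.0974%, 0.146%, 0.0348% and 0.104% of all spots did at 1, 3, 6 and 24 h, and in the lower direction 0.0974%, 0.0139%, 0%, 0.0139% and 0.0487% from the first hour to the last. At 24 h the mean was 0.43 ± 0.42 with 5 of 6 arrays above 0, and at 1, 3 and 6 h the means were -0.11, -0.14 and -0.14. The adjusted p for time was 0.0137 (limma), and the interaction with dye was not called (adjusted p = 0.56).

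The 12 h and 24 h ratios of Polb were spread widely, and the 12 h mean was just past the limit of 0.58. Another spot of Polb (2892) was among the lowest 10% of intensities on 7 arrays and was left out of all tests. With that filter lifted its 12 h mean was 0.27 ± 1.03 and its 24 h mean 0.17 ± 0.31, with 4 of 6 arrays above 0 both times, so its spread was larger than its mean.

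Rrm2, which sets the supply of deoxynucleotides in S phase, lay farthest from the untreated level at 1 h. At 1 h its 6 arrays (spot 12389) had a lowest value of -0.71, a median of -0.46 and a highest value of -0.24, and the mean was -0.48 ± 0.16, a 0.719-fold signal in CRH-treated cells. Both orientations were below 0, with -0.53 for CRH in Cy3 and -0.42 for CRH in Cy5. At 3, 6 and 12 h the means were 0.04, 0.10 and 0.10, with arrays on both sides of 0, and at 24 h the mean was -0.21 ± 0.31 with 4 of 6 arrays below 0. The adjusted p for time was 0.0118 (limma), and without the 1 h arrays it was 0.425.

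The spot named replication factor C (7400), after the complex that loads Pcna, also had all 6 arrays below 0 at 1 h, with a lowest value of -0.63, a median of -0.30 and a highest value of -0.08. Its means from the first hour to the last were -0.31 ± 0.21, 0.14 ± 0.27, -0.07 ± 0.43, -0.14 ± 0.35 and 0.21 ± 0.34. The adjusted p for time was 0.0488 (limma), next to the threshold. The named subunits Rfc2, Rfc3 and Rfc5 were not called (adjusted p for time 0.817, 0.184 and 0.382).

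**Figure D2:**
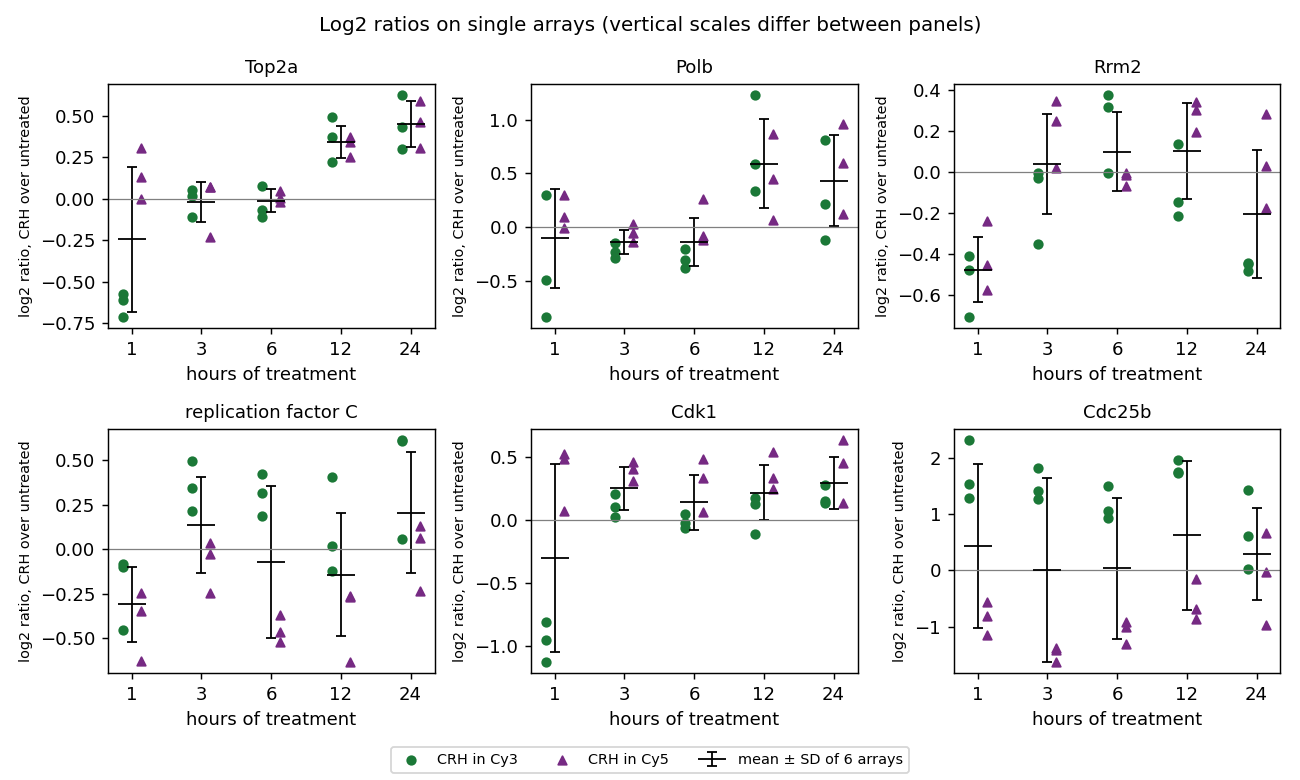
Log2 ratio (CRH over untreated) on each array against hours of treatment for 6 member spots, as circles where CRH was in Cy3 and triangles where it was in Cy5, with the mean and SD of 6 arrays. Top2a lies above 0 on all arrays at 12 and 24 h, Rrm2 and replication factor C lie below 0 on all arrays at 1 h, and Cdc25b is split by dye at 1, 3, 6 and 12 h.

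The time points were not spread evenly over the days of quantification. There were 4 days: the 3 h and 6 h arrays shared 1, the 1 h arrays had their own, 4 of the 12 h arrays had their own, and the other 2 of the 12 h arrays shared the last with the 24 h arrays. By this layout, differences between the early, middle and late time points cannot be told apart from the day. With the day as a block 0 of the 4 passed (adjusted p from 0.513 to 0.859 by limma). That test compares only time points that share a day, so it cannot judge the other differences. Within 1 day, 6 h against 3 h and 24 h against the 2 arrays of 12 h, 0 of 102 members were called by limma (0.0348% and 0% of all spots), and at an unadjusted p under 0.01 there were 5 and 2 members (3.5% and 1.41% of all spots).

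At 1 h, 5 of 102 member spots lay below 0 on all 6 arrays, where 3.32% of all spots did, and 0 lay above 0 on all arrays, where 2.85% did. All 5 belong to the fork and DNA synthesis group: Rrm2, replication factor C, Rpa1 and both spots of the sliding clamp Pcna. Rpa1, the large subunit of the protein that coats single strands, had a lowest value of -0.73, a median of -0.31 and a highest value of -0.14, with a mean of -0.35 ± 0.20. Pcna had -0.31 ± 0.23 on spot 274 and -0.18 ± 0.14 on spot 11729.

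Other genes of the fork and DNA synthesis group lay on both sides of 0. Of its 28 spots 16 were below 0 at 1 h and 12 were above, and their median was -0.06. Over all 14375 spots, 7030 were below 0 at 1 h and 7345 were above. Rrm1, the large subunit of the same reductase as Rrm2, had 0.07 ± 0.29 at 1 h with 2 of 6 arrays above 0. Rpa2 had -0.02 ± 0.07 and 0.02 ± 0.40 on its 2 spots. Among the licensing genes 13 of 17 spots were below 0 at 1 h, beside 7030 of all 14375 spots, with a median of -0.11. They were led by Orc2 (-0.32 ± 0.31 on its measured spot) and Cdc45 (-0.30 ± 0.44 on 1 spot and -0.06 ± 0.16 on the other). None of these 17 was below 0 on all 6 arrays, where 3.32% of all spots were.

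After 1 h, Pcna spot 274 had means of 0.28 ± 0.37, -0.01 ± 0.51, 0.21 ± 0.27 and -0.16 ± 0.22 in time order, and the interaction of time and dye was called for both spots (adjusted p = 0.00537 and 0.0486 by limma). At 6 h the dye orientations of spot 274 had means of 0.45 and -0.48, the first with CRH in Cy3 and the other with CRH in Cy5. The 2 spots had the same sign at 5 of 5 time points, and the largest gap between them was 0.27 at 3 h. Spot 11729 reached the scanner limit of 65000 on 8 arrays and spot 274 on 3, which flattens the ratio there.

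Among the mitotic genes, Cdk1, the kinase that starts mitosis, was above 0 on average from 3 h on. At 24 h its 6 arrays had a lowest value of 0.13, a median of 0.21 and a highest value of 0.64, and the mean was 0.30 ± 0.21. All 6 arrays were above 0 at 3 h (0.25 ± 0.17) and at 24 h, while at 6 h and 12 h 4 and 5 of 6 were. At 1 h the mean of -0.30 ± 0.75 combined -0.96 with CRH in Cy3 and 0.36 with CRH in Cy5. Time was not called for Cdk1 (adjusted p = 0.0614) and the interaction was (adjusted p = 0.00472, limma).

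Ccna2, the cyclin of S and G2 phase, had -0.09, 0.00, 0.10, 0.17 and 0.23 over the 5 time points in order, and at 24 h all 6 arrays were above 0, between 0.01 and 0.42. Neither its time test (adjusted p = 0.662) nor its slope of 0.07 with a standard error of 0.04 (adjusted p = 0.70 by limma) was called. Ccnb1, a mitotic cyclin, had 0.29 ± 0.31 at 1 h and -0.02 ± 0.75 at 24 h, and a spot named as a sequence related to it stayed between -0.11 and 0.01. Ccnb2, another mitotic cyclin, had all 6 arrays above 0 at 12 h (0.16 ± 0.13) and 0.04 ± 0.19 at 24 h. Cdc20, the activator of the anaphase promoting complex, stayed between -0.05 and 0.06.

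Cdc25b, the phosphatase that activates Cdk1, had the highest mean over the time course, 0.28 with a standard error of 0.08, and the lowest p of a CRH effect among the members (adjusted p = 0.699 by limma). Its arrays were split by dye: at 3 h the 3 arrays with CRH in Cy3 averaged 1.49 and the 3 with CRH in Cy5 averaged -1.47. At 12 h these means were 1.81 and -0.57, so the 12 h mean of 0.62 has an SD of 1.33. Another Cdc25b spot (22996), left out for 1 dim array, had -0.40 ± 0.97 at 1 h and 0.55 ± 0.32 at 24 h with 6 of 6 arrays above 0 at 24 h, when the filter was lifted. Cdc25a, the phosphatase of G1 and S phase, lay between -0.18 and 0.15.

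The machinery of G1 and S phase entry showed little movement. D cyclins, which answer to growth signals, had no mean above 0.22 in size on their measured spots: Ccnd1 lay between -0.04 and 0.22 on 1 spot and between -0.21 and 0.11 on the other, Ccnd2 between -0.13 and 0.22 and Ccnd3 between -0.14 and 0.05. On spots left out as dim, with the filter lifted, Ccnd3 had -0.46 ± 0.56 at 12 h (1 dim array) and Ccnd1 had 0.31 ± 0.80 at 1 h (7 dim arrays). Ccnd2 had all 6 arrays above 0 at 6 h, between 0.06 and 0.47, and 2 of 6 at 3 h. Ccne1, the cyclin of the G1 to S transition, lay between -0.04 and 0.10 and Cdk2, its kinase, between -0.15 and 0.03.

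Cdk4, the kinase of the D cyclins, was the one member with all arrays on opposite sides of 0 at different hours. At 3 h its 6 arrays had a lowest value of 0.10, a median of 0.21 and a highest value of 0.41, and at 12 h a lowest value of -0.27, a median of -0.14 and a highest value of -0.07. The adjusted p was 0.0802 for time and 0.0226 for the interaction of time and dye (limma). At 1 h the means were -0.67 with CRH in Cy3 and 0.07 with CRH in Cy5.

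Most means of the kinase inhibitors, which hold cells in G1, were also near 0. The lowest was that of Cdkn2d at 3 h, -0.41. Its adjusted p for time was 0.073, and 0.0328 without the 12 h arrays (limma). Cdkn1a, the p53 target p21, lay between -0.01 and 0.09 over the 5 time points with an adjusted p for time of 0.986. Cdkn2b, Cdkn2c and Cdkn2d, inhibitors of Cdk4, had 0.16 ± 0.13, 0.14 ± 0.34 and 0.28 ± 0.33 at 1 h, and their 24 h means were -0.10, -0.08 and -0.11. Each of the 4 inhibitor spots was above 0 at 1 h and below 0 at 24 h, and 0 of 4 were called by any of the limma tests. Over all 14375 spots, 7345 were above 0 at 1 h and 7569 were below 0 at 24 h. The spots of Cdkn1b and Cdkn1c were dim on 8 and 3 arrays and were not tested. With the filter lifted, Cdkn1c had 0.52 ± 0.44 at 1 h with 5 of 6 arrays above 0. Cdkn1b had 0.21 ± 0.12 at 3 h with 6 of 6 arrays above 0.

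Of the licensing factors, Mcm5, a subunit of the helicase, had the highest mean over the time course, 0.16 with a standard error of 0.06 (adjusted p = 0.908 by limma). Its means were -0.04, 0.21, 0.17, 0.30 and 0.15 from 1 to 24 h, and all 6 arrays were above 0 at 6 h (0.06 to 0.29). The difference between Mcm5 and the other subunits was not tested. Mcm2 had 0.26 ± 0.40 at 12 h and -0.25 ± 0.22 at 24 h with all 6 arrays below 0, Mcm3 lay between -0.18 and 0.01, and Mcm7 had 0.21 ± 0.30 at 24 h. The Mcm6 spot was left out for 1 dim array. With the filter lifted its means were -0.24, 0.14, 0.20, -0.11 and 0.11 from 1 to 24 h.

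Cdc6, the loader of the helicase, had all 6 arrays below 0 at 3 h, between -0.49 and -0.05 with a mean of -0.31 ± 0.15, and 0.23 ± 0.28 at 24 h. Orc5, an origin recognition subunit, had all 6 arrays above 0 at 3 h (0.27 ± 0.16) and at 12 h (0.19 ± 0.12), and means of -0.13, -0.02 and 0.00 at 1, 6 and 24 h. Orc2 had the lowest mean of all measured members over the time course, -0.12 with a standard error of 0.06 (adjusted p = 0.917 by limma). Other Orc2 spots were left out for 1 dim array (2503) and 2 dim arrays (11099). With the filter lifted, spot 2503 had 0.40 ± 0.21 at 12 h with 6 of 6 arrays above 0, and spot 11099 had -0.05 ± 0.40. Orc1 and Orc4 lay between -0.23 and 0.15.

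**Figure D3:**
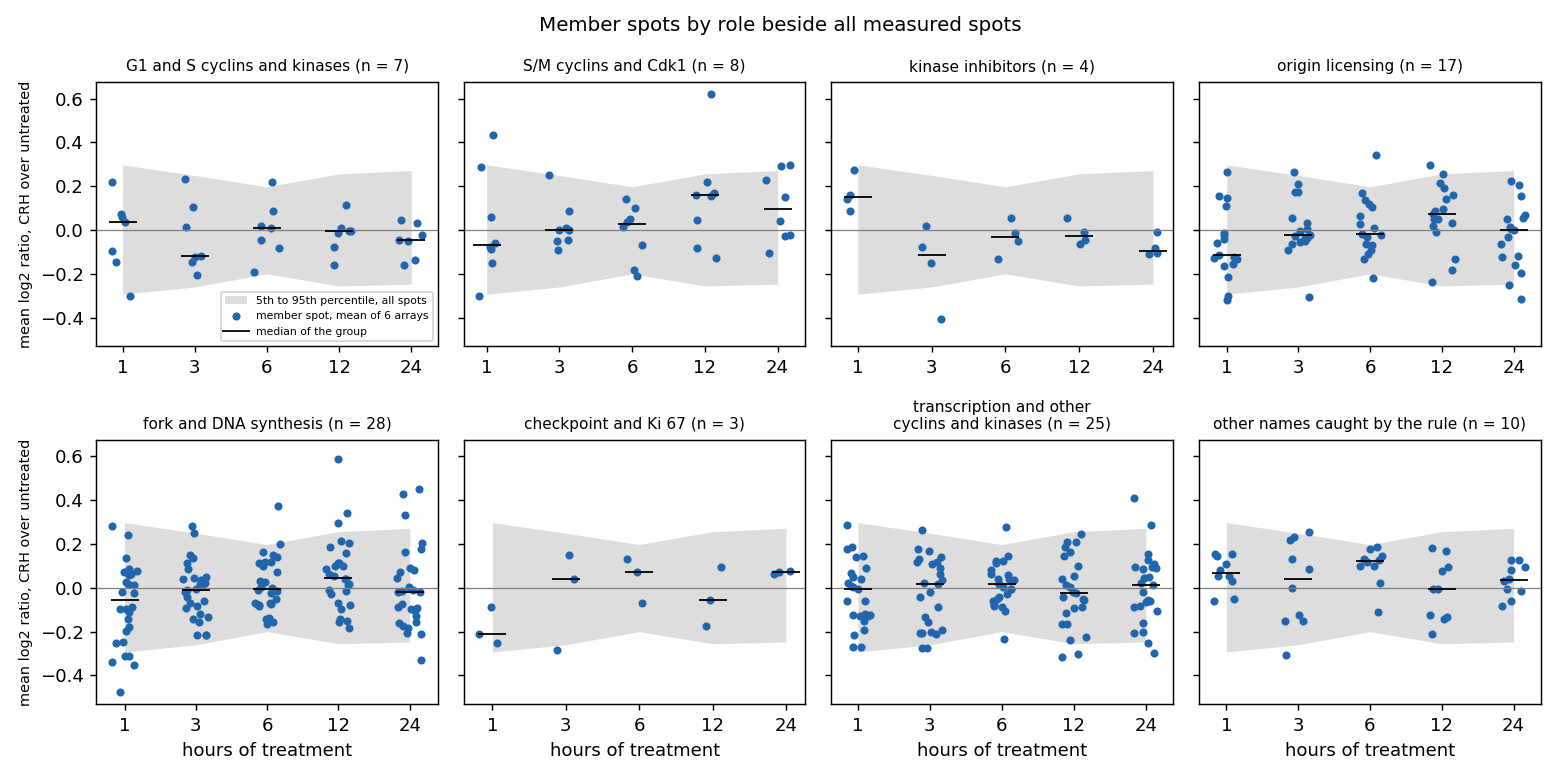
Mean log2 ratio (CRH over untreated, 6 arrays) of each member spot against hours of treatment in 8 role groups, with the median of the group as a bar and the 5th to 95th percentile of all 14375 spots in grey. Most member spots lie inside the grey band. Spots of the fork and DNA synthesis group outside it include Rrm2 and Rpa1 at 1 h, Polb and Top2a at 12 h, and Top2a, Polb, Pole3 and Rrm1 at 24 h.

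The replicative polymerases did not move as a group. Pola1, Pold1, Pold2 and Pole2, subunits of polymerases alpha, delta and epsilon, had means between -0.22 and 0.20 at every time point. Pole3, a small subunit of polymerase epsilon, had all 6 arrays above 0 at 24 h on 1 spot (0.33 ± 0.20) and 1 of 6 on the other (-0.17 ± 0.18). Poli, a polymerase that copies past damage, had 0.24, 0.25 and 0.38 at 1, 3 and 6 h and values near 0 afterwards, with a mean over the time course of 0.17 (adjusted p = 0.908 by limma).

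Of the other topoisomerases, whose difference from Top2a was not tested, none was called for time. Top1, which relieves supercoils ahead of forks and transcripts, had 0.14, 0.05, -0.05, -0.16 and -0.21 from 1 to 24 h, and at 24 h all 6 arrays were below 0, between -0.51 and -0.04. Its slope was -0.08 per doubling of time with a standard error of 0.04 (adjusted p = 0.663 by limma). Top3b, which resolves single-strand crossings, had -0.34 ± 0.45 at 1 h and means of 0.12, 0.12, 0.16 and -0.01 afterwards, and its relative Top3a had 0.28 ± 0.22 at 1 h and means between -0.08 and 0.07 afterwards. Top2b, the isoform also found in non-dividing cells, had -0.18 ± 0.30 and -0.15 ± 0.31 at 24 h on its 2 spots. Rrm1 had all 6 arrays below 0 at 24 h (-0.33 ± 0.22).

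The proliferation marker Ki 67 (Mki67) had -0.21 ± 0.20 at 1 h with 5 of 6 arrays below 0, and between 0.07 and 0.15 from 3 h on. The spindle checkpoint kinase Bub1b had -0.25 ± 0.24 at 1 h, -0.28 ± 0.21 at 3 h and 0.06 ± 0.31 at 24 h. Its partner Bub3 lay between -0.09 and 0.08 on its measured spot. None of these 3 spots was called. Another Bub3 spot (637), left out for 1 dim array, had -0.47 ± 0.61 at 1 h and 0.42 ± 0.82 at 12 h with the filter lifted.

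Cyclins and kinases that act in transcription, and other relatives, form 25 spots of 16 genes. Of these, 0 were called for time (5.36% of all spots). Cdk7, the kinase that activates other cyclin-dependent kinases, had -0.19 at 1 h and 0.17, 0.28, 0.19 and 0.29 from 3 to 24 h, with a slope of 0.09 (adjusted p = 0.636 by limma) and 4 of 6 arrays above 0 at each of these later time points. Its cyclin, Ccnh, lay between -0.12 and 0.12. The spots that the name rule takes in without a role in the cycle include Cdc42, a small GTPase of the cytoskeleton, whose 4 spots had means over the time course of 0.09, 0.09, 0.07 and 0.08, and 2 of them had all 6 arrays above 0 at 3 h (0.23 and 0.22).

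The interaction of time and dye was called by limma for 11 spots, and besides Top2a, Cdk1, Cdk4, Cdc25b and both Pcna spots these were Cdc37l1, a relative of a chaperone that serves kinases (adjusted p = 0.000996), the polymerase epsilon subunits Pole4 (0.012) and Pole2 (0.0255), the metal transporter relative Cnnm3 (0.0226) and 1 spot of Orc3 (0.0447). Pole4 at 1 h had means of 0.93 with CRH in Cy3 and -0.80 with CRH in Cy5, which gives 0.06 ± 0.96 together. Cdc37l1 at 1 h had means of 0.82 and -0.53 in the same order, while at 12 h both orientations were below 0 (-0.22 and -0.20) and so were all 6 arrays. For these spots the mean of a time point hides a gap between the orientations.

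Genes with more than 1 spot give a check of the values that does not depend on single spots. There were 16 such genes, and the largest gap between spots of 1 gene at 1 time point ranged from 0.14 (Rpa2) to 0.67 (Cdk5 at 24 h). The 2 spots of Cdk5, a kinase of neurons, had 0.41 ± 0.47 and -0.25 ± 0.48 at 24 h, and Ccni, an atypical cyclin, had 0.15 ± 0.31 and -0.30 ± 0.13. The 4 spots of Orc3, an origin recognition subunit, lay between -0.13 and 0.34 at 6 h, and the 2 of Ccnt2, a cyclin of the transcription elongation kinase, had -0.28 ± 0.42 and 0.18 ± 0.31 at 3 h. The elongation cyclin Ccnk had 0.29 ± 0.57 on 1 spot and -0.06 ± 0.22 on the other at 1 h. The spots of Ccnc, the cyclin of the Mediator kinase, came closer, with a largest gap of 0.23, as did those of Cdk13, a transcription kinase, with 0.16. Largest gaps were 0.33 for Cdk11b, another transcription kinase, and 0.38 for the 3 spots of Cdk5r1, the activator of Cdk5. Top2a, Rrm2, Cdk1 and Polb each rest on 1 measured spot.

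**Figure D4:**
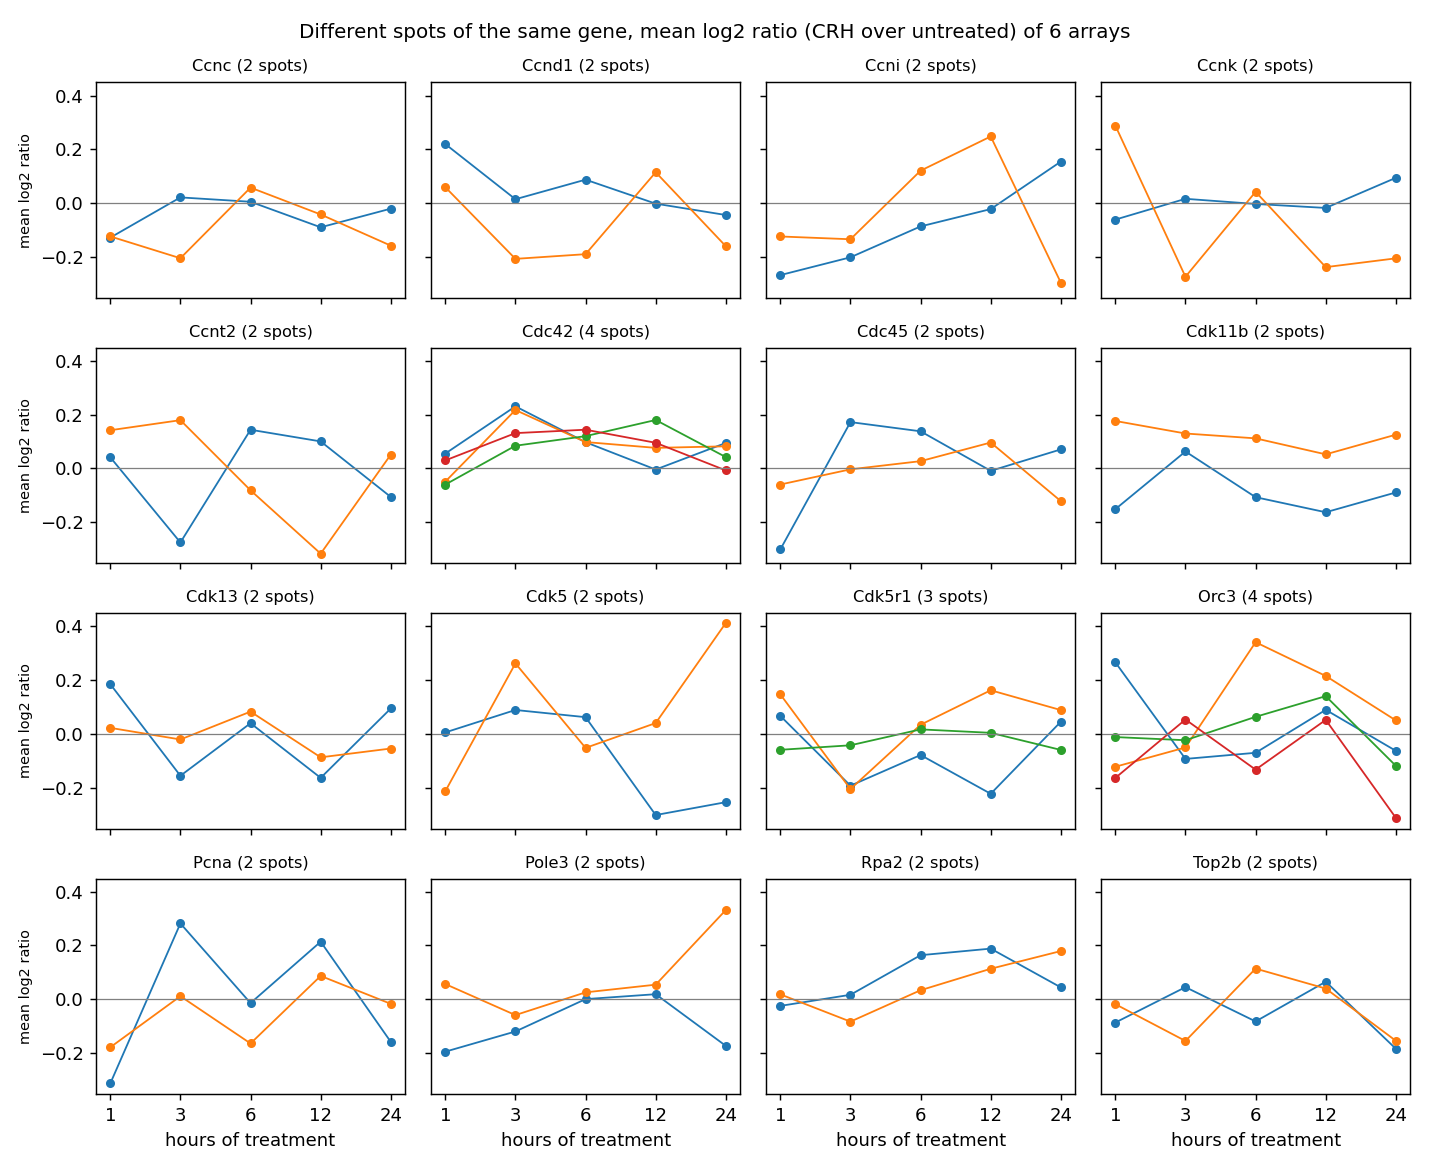
Mean log2 ratio (CRH over untreated, 6 arrays) against hours of treatment for the 16 genes with 2 to 4 measured member spots, 1 line per spot. The 4 spots of Cdc42 and the 2 of Rpa2 run close together, and those of Cdk5, Ccni and Pole3 part at 24 h.

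Counts of spots with the same sign on all 6 arrays were read against the array at the later hours as well. Above 0 on all arrays were 5 members at 3 h (4.63% of all spots), 3 at 6 h (1.29%), 5 at 12 h (2.6%) and 4 at 24 h (2.66%). Below 0 on all arrays were 2 members at 3 h (2.33% of all spots), 1 at 6 h (1.41% of all spots), 3 at 12 h (1.96%) and 5 at 24 h (1.95%). The 4 that were above 0 at 24 h were Top2a, Cdk1, Ccna2 and 1 spot of Pole3, and the 5 below were Rrm1, Top1, Mcm2, Ccnl1 and 1 spot of Ccni.

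Cell cycle genes outside the name rule were taken from a list of E2F factors, mitotic kinases, checkpoint kinases, cohesins and the like. Of its 62 measured spots from 46 genes, 7 were called by limma for time (5.36% of all spots), 6 for the interaction of time and dye (11.2% of all spots) and 0 for a CRH effect (0.0557%) or a trend (0%). Stmn1, a microtubule regulator of dividing cells, was called on both of its spots (adjusted p = 0.00522 and 0.00158 by limma), with 1 h means of -0.57 ± 0.25 and -0.48 ± 0.53, and 3 h means of 0.13 ± 0.10 and 0.27 ± 0.20. Its interaction of time and dye was also called on both spots (adjusted p = 0.0169 and 0.0246 by limma). Anapc5, a subunit of the anaphase promoting complex, had 0 of 6 arrays above 0 at 1 h (-0.37 ± 0.20) and 6 of 6 at 3 h (0.46 ± 0.18). The other 4 called spots were 1 of 3 for Anapc1, 1 of 2 for E2f3, and those of Chek2 and Hmgb2. For Chek2 and Hmgb2 the interaction of time and dye was called too (adjusted p = 0.0328 and 0.0276 by limma).

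Promoter sequence is shown for Top2a, Rrm2 and Cdk1 because Top2a and Rrm2 changed over time and Cdk1 is the mitotic kinase described above, and RefSeq (assembly GRCm38.p6) holds a start site for each. Each line gives the bases just before the annotated gene start, 5′ to 3′ on the gene's strand, with matches to the motifs below in capitals.
Top2a, chr11:99024200-99024439, minus strand: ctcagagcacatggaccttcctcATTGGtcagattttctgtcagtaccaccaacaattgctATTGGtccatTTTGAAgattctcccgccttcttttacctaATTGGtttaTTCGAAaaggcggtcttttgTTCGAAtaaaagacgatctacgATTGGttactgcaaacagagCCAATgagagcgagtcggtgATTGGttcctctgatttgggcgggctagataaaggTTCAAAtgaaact
Rrm2, chr12:24708004-24708253, plus strand: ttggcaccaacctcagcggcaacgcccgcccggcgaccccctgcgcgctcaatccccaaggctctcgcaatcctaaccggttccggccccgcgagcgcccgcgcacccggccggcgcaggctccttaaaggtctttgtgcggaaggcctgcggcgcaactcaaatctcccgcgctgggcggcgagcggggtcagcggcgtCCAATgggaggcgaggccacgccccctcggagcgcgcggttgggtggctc
Cdk1, chr10:69352913-69353162, minus strand: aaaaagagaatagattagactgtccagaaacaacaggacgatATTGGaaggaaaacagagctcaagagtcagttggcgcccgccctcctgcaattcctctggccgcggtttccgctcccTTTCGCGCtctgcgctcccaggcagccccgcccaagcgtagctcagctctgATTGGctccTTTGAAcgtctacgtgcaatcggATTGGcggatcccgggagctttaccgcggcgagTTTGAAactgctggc

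The motifs searched, on both strands, were TGACGTCA (the cyclic AMP response element) and its shorter form TGACG, which the full element contains on both strands, TTTGAA and TTCGAA (cell cycle homology regions), TTTCCCGC, TTTGGCGC and TTTCGCGC (E2F sites) and CCAAT, with ATTGG its reverse. Top2a holds 6 CCAAT boxes, 2 TTTGAA and 2 TTCGAA, and neither TGACG nor an E2F form. Rrm2 holds 1 CCAAT box and none of the other forms. Cdk1 holds 3 CCAAT boxes, 2 TTTGAA and 1 TTTCGCGC, and no TGACG.

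Of 78 member genes with a symbol, 67 had a RefSeq promoter window of 250 bases among those searched, 77 windows in all. Windows on a single chromosome were left out of the search, for members and all genes alike. CCAAT stood in 54.5% of member windows, against 33.8% of 32851 searched windows of all genes, and TTTGAA in 18.2%, against 16%. TGACGTCA stood in 7.79% of member windows, against 1.55% of all, and the shorter TGACG in 33.8%, against 17.8%. TTCGAA stood in 5.19% of member windows, against 1.34% of all. The E2F forms TTTCCCGC, TTTGGCGC and TTTCGCGC stood in 7.79%, 3.9% and 5.19% of member windows, against 0.895%, 0.417% and 0.256% of all. The 6 member genes with TGACGTCA were Ccnl1, Cdc5l, Cdkn2b, Cnnm4, Mcm5 and Orc5, of which 0 were called for time, a CRH effect or a trend. These counts describe letters in a window and were not set against the ratios by a test.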

How the data were processed

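The authors hybridised, scanned and quantified the arrays, and the deposited scanner files hold a foreground intensity and a background intensity per spot and dye. Spots in the lowest 10% of any channel on any array were left out, a rule modelled on the study's methods. It did not keep the same spots as the authors did. Here 14375 spots were kept, and some of them, such as Polb spot 4873, are absent from the authors' table. Ratios were normalised by print-tip loess (span 0.75, 4 iterations) without background subtraction and turned to CRH-treated over untreated. The authors also deposited a table of normalised log2 ratios (12593 spots, 89 of them members), used only as an alternative; over 11341 shared spots its arrays correlated with the recomputed ratios at r between 0.979 and 0.992. limma 3.58.1 in R 4.3.3 fitted all measured spots, with Benjamini-Hochberg adjustment, either over 30 arrays (time and dye orientation) or over 1 average per time point. Scripts were tested on simulated data. Figures were drawn with matplotlib 3.10.9.

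The members, roles and lists were chosen with earlier results of these data known. Named genes were those past the size rule or called by a limma test (up to 8 per test), the 6 highest and 6 lowest by mean over the time points and at 24 h, genes with several spots, and a fixed list of core cyclins, kinases, inhibitors, licensing and fork genes; other genes named were chosen after their values were seen. Array numbers do not pair the samples: after means of time and dye were removed, same-numbered arrays correlated between -0.03 and 0.05. The 6 arrays per hour limit the precision of each ratio, and the 1 pair of extracts limits what it says of the response. Background correction, dim-spot removal, loess, design and left-out arrays were varied. One marker gene is not reported here.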

Additional observations from a re-analysis of the deposited data

Results flagged for a closer look

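In 10 groups of 6 arrays, 1 array lay apart from the other 5 by Dixon's criterion, which chance alone meets in about 1 in 20 groups. Only the 415 groups of the named spots were examined here, and 2.41% met it. Over all member spots 12 of 510 groups met it. The ratios of the 10 arrays of named spots were 1.39 for Ccne1 at 1 h (replicate 4), 0.80 for 1 spot of Ccnk at 12 h (replicate 2), 0.62 for 1 spot of Cdc42 at 1 h (replicate 5) and -0.30 for another at 24 h (replicate 6). Cdkn1a had -0.45 at 1 h (replicate 2) and 0.60 at 24 h (replicate 4). Cnnm3 had -0.69 at 6 h (replicate 1) and 1 spot of Top2b had -0.59 at 1 h (replicate 6). Both Pcna spots had such an array at 1 h, -0.78 on spot 274 (replicate 2) and -0.44 on spot 11729 (replicate 6), and without it their 1 h means were -0.22 and -0.13. The Ccne1 mean at 1 h was 0.08 with that array and -0.19 without it.

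Cdk4 had all arrays above 0 at 3 h and all below 0 at 12 h, a difference of 0.40 that was not tested by itself. The time points differed for Top2a (adjusted p = 0.00333 by limma), Rrm2 (0.0118), Polb (0.0137) and replication factor C (0.0488).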

How the results depend on the processing

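Against 4 members that changed over time, the count was 2 without removal of dim spots, 2 on the authors' deposited log2 ratios, 1 with hours as a single number and 0 with the day as a block. Over all spots the count was 771 at first, and 495, 637, 24 and 33 in these settings in order. The day block compares only time points that share a day. The member count was 0 for each comparison within 1 day. With the replicate block it was 3 (579 of all spots), replication factor C having an adjusted p of 0.0545. Without 1 replicate number it ranged from 0 (without replicate 1) to 5, and was 2 without replicate 2 or 3. Over all spots it was 225, 221 and 240 without replicate 1, 2 and 3, and 538, 642 and 596 without replicate 4, 5 and 6. Without 1 time point, an alternative chosen after seeing the data, the member count ranged from 2 (without 1 h or 3 h) to 5 (without 6 h). Over all spots it was 133, 313 and 906 without 1, 3 and 6 h. Calls were lost as follows (adjusted p). Top2a had 0.0567 and 0.0565 without replicate 1 and 3. Polb had 0.069, 0.116 and 0.0534 without replicate 1, 2 and 6, 0.0634 without removal of dim spots, 0.124 with hours as a single number, and 0.0626 and 0.0664 without 3 h and 12 h. Rrm2 had 0.122 and 0.0676 without replicate 1 and 4, 0.0548 with 1 loess curve, 0.96 with hours as a single number and 0.425 without 1 h. Replication factor C had 0.0698 to 0.228 without each of the 6 replicates, 0.102 without removal of dim spots, 0.186 with 1 loess curve, 0.0836 on the deposited ratios, 0.414 with hours as a single number, and 0.289, 0.143 and 0.143 without 1, 3 and 24 h. The count for a CRH effect ranged from 0 to 1 without 1 replicate (1 without replicate 5), and that for a trend was 0 throughout. The 11 members with an interaction of time and dye became 6 with 1 loess curve over the whole array, while 1611 of all spots became 1263. The 1 member past the size rule became 6 with a smaller fold limit, 2 with no rule on signs and 0 on the deposited ratios, which do not list that spot, and ranged from 0 to 1 without 1 replicate (0 without replicate 3 or 4). Over all spots the count past the size rule rose as well, from 81 at first to 1109 with the smaller fold limit. It was also higher than at first with no rule on signs, and it was 86 on the deposited ratios. The 24 h median was 0.018 on the deposited ratios and ranged from -0.0156 to 0.0195 without 1 replicate. The causes were not tested. For the 4 spots called for time, the difference of 24 h minus 1 h kept its sign wherever it was recomputed and the spot was listed. It was not recomputed with the replicate block, the day as a block, hours as a single number or without 1 time point.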
